A study of Mus musculus with 2 samples.

Results

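The genes described here encode subunits of the AMPA and NMDA receptors, the ionotropic glutamate receptors that carry most fast excitatory transmission in the brain. They were chosen by symbol (Gria1, Gria2, Gria3, Gria4, Grin1, Grin2a, Grin2b, Grin2d and Grin3a), and all 9 were found among the 33696 genes counted. The study measured nuclear RNA by single-nucleus RNA sequencing (10x Genomics 3′ chemistry) in the hippocampus of mice at postnatal day 19. The Control library was made from Cicflox/flox mice, whose Cic alleles are both floxed, and the other library, labelled knockout, from littermates of the genotype Emx1-Cre; Cicflox/flox. The floxed alleles were thus shared by both groups, which differed in the Cre transgene; Emx1-Cre acts in the dorsal telencephalic lineage, which gives rise to excitatory neurons and much of the glia but not to interneurons or microglia. Tissue of 3 mice, 1 female and 2 males with 1 hippocampus each, was pooled for each library, so every group was a single library and no difference between the groups could be tested.

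AMPA receptors are tetramers of GluA1 to GluA4, encoded by Gria1 to Gria4, and the edited GluA2 subunit makes the channel almost impermeable to calcium. NMDA receptors need the GluN1 subunit, encoded by Grin1, together with GluN2 subunits that set their kinetics. In the forebrain GluN2B (Grin2b) prevails early and GluN2A (Grin2a) is added as synapses mature, while GluN2D (Grin2d) is known from interneurons and early development and GluN3A (Grin3a) from juvenile synapses. Capicua, the protein made from Cic, is a transcriptional repressor that binds a short octamer in DNA. The title of the series places its question at the mossy fibers, the axons that run from dentate granule cells to CA3.

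The Control library held 25907 barcodes and 314453640 UMIs (unique molecular identifiers, each standing for a captured molecule). For the library labelled knockout these numbers were 23207 and 252995761. After filtering and the removal of called doublets, 21866 and 20530 nuclei were used, and 175 barcode sequences occurred in both libraries. Nuclei were clustered without the 9 genes and without the receptor-associated genes described further on. Clusters were named from marker genes, with the ending "-like" because the names rest on markers alone, and 18 classes had at least 100 nuclei in each library. Levels are UMIs per 1000000 UMIs of the class in its library (CPM), and ratios are log2 of the library labelled knockout over Control. Where a pair of values is given, Control comes first. Intervals are 95% intervals that cover counting error only, not the spread between mice or library preparations. Cic itself was not lower in the excitatory classes of the library labelled knockout: it had 487 and 481 UMIs in dentate granule-like nuclei (log2 ratio 0.46), 205 and 287 in CA3-like nuclei (0.76) and 246 and 377 in CA1-like nuclei (0.89). Inhibitory-like nuclei had 217 and 182 UMIs (-0.06, interval -0.35 to 0.23). Counts over the whole gene cannot show whether the counted molecules held the floxed exons, so every direction here is given for the library as labelled.

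The promoters of Gria2, whose product sets calcium permeability, and of Grin1, which every NMDA receptor needs, are shown because both genes had lower values in granule, CA1 and CA3 nuclei of the library labelled knockout. RefSeq windows on GRCm38.p6 were matched by symbol for 4 members, Gria2, Gria4, Grin1 and Grin2d, and not for Gria1, Gria3, Grin2a, Grin2b and Grin3a. Each line gives the 250 bases before the annotated start, 5′ to 3′ on the strand of the gene, for Gria2 at chr3:80802836-80803085 (minus strand) and for Grin1 at chr2:25319188-25319437 (minus strand).
Gria2: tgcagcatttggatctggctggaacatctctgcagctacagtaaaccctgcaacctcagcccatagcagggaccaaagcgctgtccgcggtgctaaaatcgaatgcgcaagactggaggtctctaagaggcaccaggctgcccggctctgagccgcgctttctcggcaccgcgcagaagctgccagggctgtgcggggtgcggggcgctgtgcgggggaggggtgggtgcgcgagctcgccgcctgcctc
Grin1: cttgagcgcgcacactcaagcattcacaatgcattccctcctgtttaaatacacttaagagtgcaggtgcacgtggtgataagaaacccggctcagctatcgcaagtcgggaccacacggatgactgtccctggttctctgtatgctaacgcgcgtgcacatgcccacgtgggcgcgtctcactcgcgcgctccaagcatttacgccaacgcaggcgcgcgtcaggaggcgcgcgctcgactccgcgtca
The words TGAATGAA, TGAATGGA, TCAATGAA and TCAATGGA, which make up the Capicua octamer, were searched on both strands of windows of 300 bases that also take in the first bases of the transcript. None of the 4 members had a match, so no base is set in capitals. The same search found a match in 1260 of 32851 promoter windows (3.84%). No match says only that these letters are not in these windows.

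Each gene had its own distribution over the classes, and the order of classes was read within a gene, since longer genes give more UMIs in nuclear RNA and levels of different genes cannot be ranked. Among AMPA subunits, Gria1 was highest in MGE inhibitory-like nuclei, named for the medial ganglionic eminence, with 3959 and 3853 CPM. CA1-like nuclei came next with 3670.0 and 3177 CPM, and oligodendrocyte-like nuclei were lowest of the 18 classes in Control with 92.1 and 62.3 CPM. Gria2 was high in neurons, in oligodendrocyte precursors and in astrocytes alike. It had 1912 CPM in CA1-like, 1887 in immature dentate granule-like and 1870.1 CPM in CA3-like nuclei of the Control library, and the intervals of neighbours in this order overlapped. Inhibitory-like classes stood below astrocyte-like nuclei (1432 CPM) for this gene, at 953 CPM in CGE inhibitory-like nuclei, named for the caudal ganglionic eminence, and 754 CPM in MGE inhibitory-like nuclei.

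Gria3, which encodes GluA3, had its highest Control level in deep-layer excitatory-like nuclei, 1143 CPM, followed by 988 CPM in CA1-like, 970.0 in MGE inhibitory-like and 964 CPM in subicular excitatory-like nuclei, whose intervals overlapped from each to the next. Its level was 149 CPM in immature dentate granule-like and 713 CPM in dentate granule-like nuclei. Gria4, which encodes GluA4, a subunit of fast synapses on interneurons, was highest in MGE inhibitory-like nuclei with 2804 and 2676 CPM. Cajal-Retzius-like nuclei followed with 1706 and 1912 CPM and CGE inhibitory-like nuclei with 1524 and 1415 CPM. The oligodendrocyte lineage also carried Gria4: committed oligodendrocyte precursor-like and oligodendrocyte precursor-like nuclei had 1053 and 1012 CPM in Control, with overlapping intervals, and oligodendrocyte-like nuclei had 290.0 CPM. Among neurons CA1-like and CA2-like nuclei were lowest for this gene, with 179 and 141 CPM in Control.

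Grin1 was a gene of neurons, with 321 CPM in CA1-like, 319 in dentate granule-like, 216 in MGE inhibitory-like and 159.9 CPM in immature dentate granule-like nuclei of the Control library. Grin2a was highest in CA1-like (3444 CPM) and dentate granule-like nuclei (3254 CPM) and came to 334 CPM in immature dentate granule-like nuclei. Grin2b did not show this gap between the younger and the older granule class, with 2055 and 2046 CPM and overlapping intervals in Control, while in the library labelled knockout it was higher in the younger class, with 2042 and 1827 CPM. Grin2d was low in every class, and its highest levels were in CGE inhibitory-like nuclei (36.6 and 40.2 CPM) and MGE inhibitory-like nuclei (27.0 and 29.8 CPM). Immature dentate granule-like nuclei had 16.9 and 19.8 CPM of it, and dentate granule-like nuclei 4.55 and 4.93 CPM. Grin3a was highest outside neurons, in oligodendrocyte precursor-like nuclei, with 804 and 719 CPM. MGE inhibitory-like nuclei followed with 402 and 394 CPM, and astrocyte-like nuclei had 213 and 201 CPM. Principal neurons differed widely in Grin3a: 133 CPM in subicular excitatory-like, 54.3 in CA1-like, 14.9 in dentate granule-like and 5.23 CPM in CA3-like nuclei of the Control library.

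**Figure D1:**
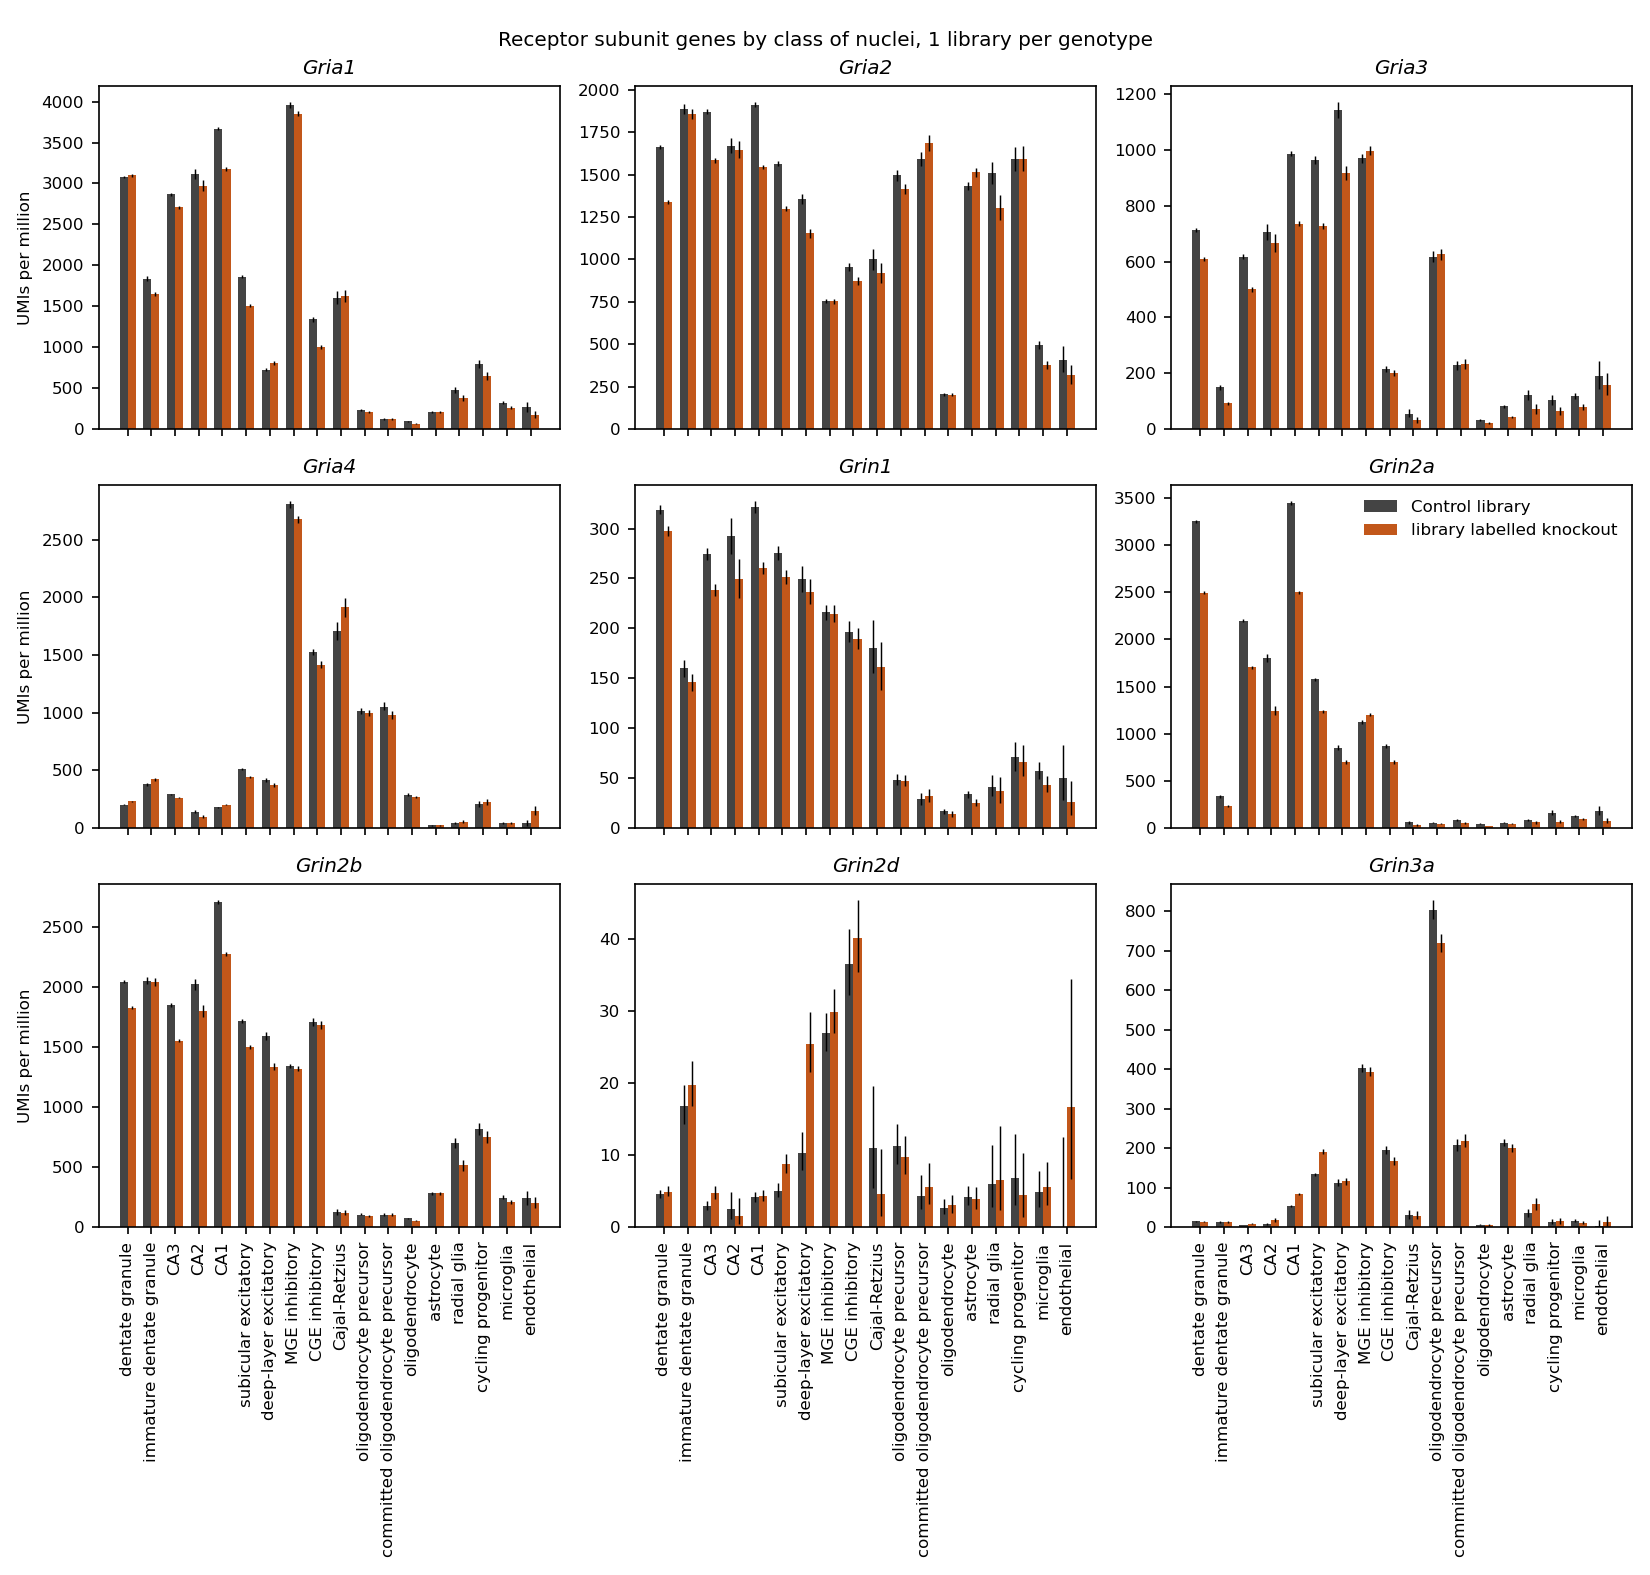
Level of each of the 9 receptor subunit genes (vertical axis, CPM, starting at 0, with its own scale per gene) in 18 classes of nuclei (horizontal axis), for the Control library (dark bars) and the library labelled knockout (orange bars), 1 library each, with 95% counting intervals. Gria4 and Grin2d stand highest in inhibitory-like classes, Grin3a in oligodendrocyte precursor-like nuclei (804 CPM in Control) and Grin2a in CA1-like and dentate granule-like nuclei.

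The main comparison was how these levels differed between the libraries within a class. A gene was called apart when its libraries differed 1.5-fold or more and the higher of them reached 50 UMIs and 10 CPM, which is a rule of size and not a test. In dentate granule-like nuclei, 4387 and 3438 in number, Grin2a had the largest difference. It had 3254 CPM (3239 to 3269.5) in Control and 2497 CPM (2481 to 2512) in the library labelled knockout, with a log2 ratio of -0.38 (-0.39 to -0.37). Of all genes with the minimum counts in this class, 6.25% had a ratio at or below that of Grin2a. Gria2 had 1664 and 1339 CPM (-0.31), Gria3 713 and 609 CPM (-0.23), Grin2b 2046 and 1827 CPM (-0.16) and Grin1 319 and 298 CPM (-0.10). The intervals of these 5 ratios lay below 0, where those of 26.7% of all genes with the minimum counts did and 32.1% lay above 0. Gria1 was nearly level at 3078 and 3100.2 CPM (0.01, 0.00 to 0.02), and its ratio lay between -0.078 and 0.059 under other settings. Gria4 was higher at 204 and 230.4 CPM (0.18), a direction that turned to -0.118 when the clusters of the class were given equal weight. Grin3a had 14.9 and 13.9 CPM (-0.09, -0.25 to 0.06), and Grin2d, with 246 and 191 UMIs, was under the minimum level. None of the 8 members that met the minimum was apart, where 4.92% of 8419 genes were 1.5-fold higher and 2.98% lower. Below 0 were 6 of these 8 members and 46.2% of all genes with the minimum counts.

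CA3-like nuclei, the cells that mossy fibers reach, had lower values in all 4 AMPA subunits and in the main NMDA subunits. Grin2a again had the largest difference among members with the minimum counts, with 2196 CPM (2179 to 2213) in Control and 1705 CPM (1689 to 1721) in the library labelled knockout, with a log2 ratio of -0.37 (-0.38 to -0.35). Gria3 had 618 and 501 CPM (-0.30), Grin2b 1852 and 1555 CPM (-0.25) and Gria2 1870.1 and 1583 CPM (-0.24). Grin1 had 274 and 238 CPM (-0.20) and Gria4 291 and 264 CPM (-0.15). Gria1 had 2869 and 2709.5 CPM (-0.08), a direction that did not hold in female nuclei, where it was 0.014. None of the 7 members with the minimum counts was 1.5-fold apart, where 3.95% of 8195 genes were higher and 1.38% lower. All 7 were below 0, where 35.4% of all genes with the minimum counts were. The members under the minimum went the other way: Grin2d had 86 and 117 UMIs (2.90 and 4.77 CPM), a log2 ratio of 0.72 (0.30 to 1.14). Grin3a had 155 and 193 UMIs (5.23 and 7.87 CPM, 0.59), and its ratio turned to -0.13 when each nucleus was thinned to 2000 UMIs, which left 21 and 18 UMIs.

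In CA1-like nuclei the largest difference below 0 was again that of Grin2a, with 3444 CPM (3426 to 3464) in Control and 2499 CPM (2481 to 2517) in the library labelled knockout, with a log2 ratio of -0.46 (-0.48 to -0.45). Gria3 had 988 and 736 CPM (-0.42), Gria2 1912 and 1544 CPM (-0.31) and Grin1 321 and 261 CPM (-0.30). Grin2b had 2706 and 2279 CPM (-0.25) and Gria1 3670.0 and 3177 CPM (-0.21). The intervals of these 6 ratios lay below 0, as did those of 18.4% of all genes with the minimum counts, and 31.9% of those genes had a ratio below 0. Grin3a was the 1 of 8 members with the minimum counts that was 1.5-fold higher, where 7.76% of 8323 genes were, and none was 1.5-fold lower, where 2.29% were. It had 54.3 CPM (52.0 to 56.8) in Control and 83.3 CPM (80.1 to 86.6) in the library labelled knockout, with a log2 ratio of 0.62 (0.53 to 0.70). That difference was short of 1.5-fold under 7 alternatives, among them median-of-ratios and TMM scaling, which set the libraries level over most genes instead of by total UMIs (0.48 and 0.51) and equal weights for the clusters, which turned it to -0.50. Gria4 had 179 and 204 CPM (0.19), and this direction turned under 4 alternatives, to -0.082 in female nuclei, -0.076 with finer clusters, -0.038 without the cluster led by Tacr3 and -0.22 with clusters weighted equally. The setting of equal weights left out the CA1 cluster that held most Control nuclei. Grin2d, with 151 and 130 UMIs, was under the minimum level. The median log2 ratio of all genes was 0.11 in this class, and scaling by median-of-ratios size factors moved every ratio by -0.13. With that scaling Grin3a was no longer 1.5-fold higher and Grin2a, at -0.60, was 1.5-fold lower, where 5.51% of all genes were higher and 3.57% lower.

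**Figure D2:**
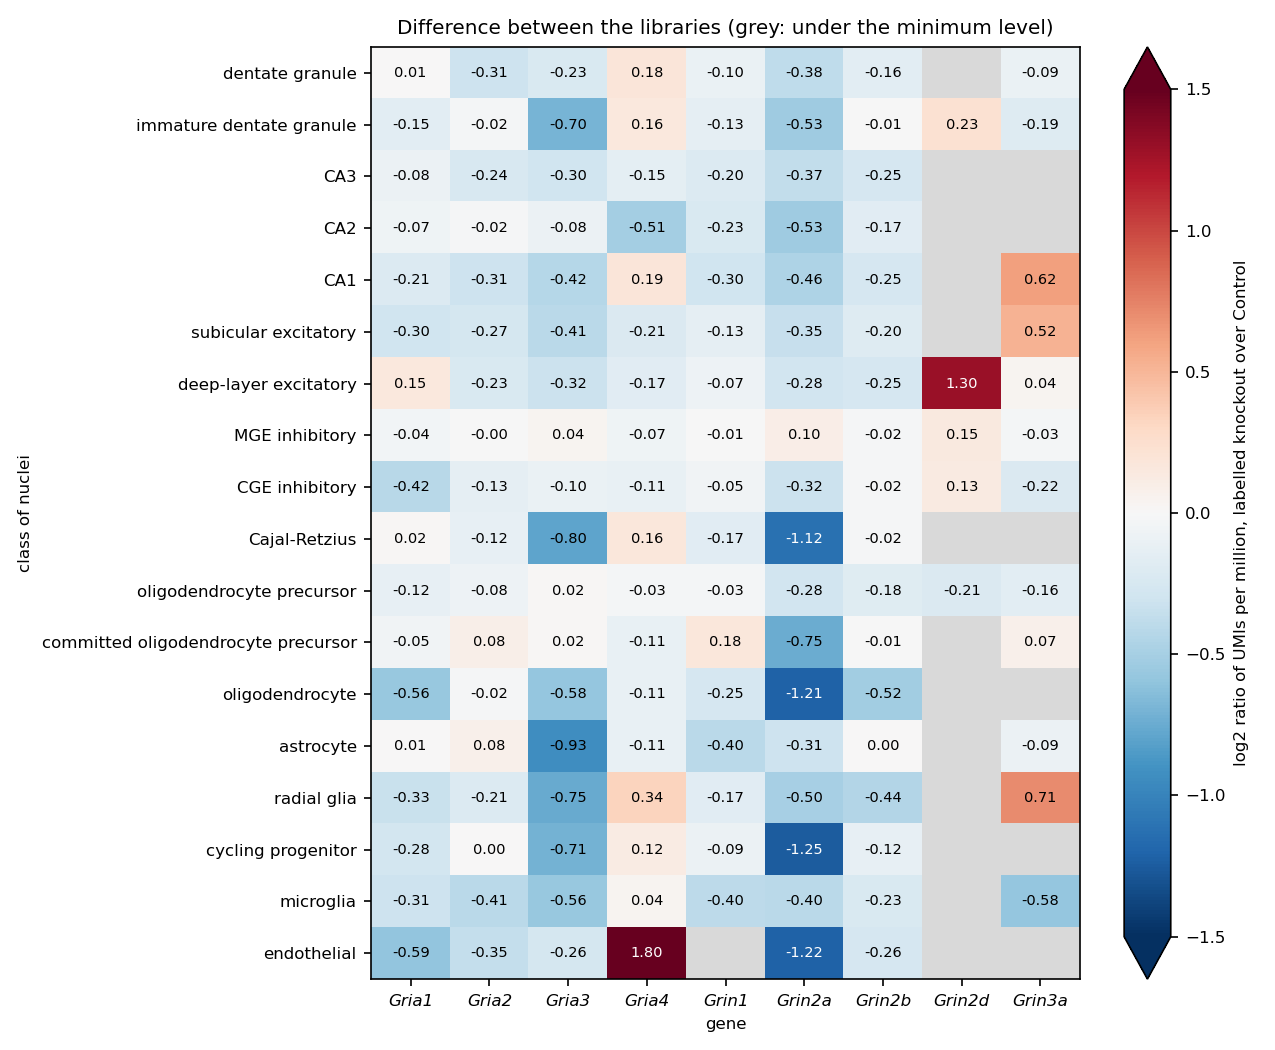
Log2 ratio of CPM, the library labelled knockout over Control, for each gene (columns) in 18 classes of nuclei (rows), with the value printed in each cell; blue is lower and red is higher in the library labelled knockout, and grey cells were under 50 UMIs or 10 CPM in the higher library. The Grin2a column is below 0 in every class but MGE inhibitory-like, where it is 0.10.

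Other excitatory classes gave further values for the same genes. CA2-like nuclei, 145 and 124 in number, had 1805 and 1246 CPM of Grin2a (-0.53) and 141 and 99.4 CPM of Gria4 (-0.51). The remaining CA2-like ratios with the minimum counts lay between -0.23 (Grin1) and -0.02 (Gria2), and none of the 7 was 1.5-fold apart, where 7.75% of genes were higher and 3.57% lower. Under median-of-ratios and TMM scaling Grin2a (-0.66 and -0.67) and Gria4 (-0.64 and -0.64) were 1.5-fold lower there, where 6.10% and 6.33% of genes were. Subicular excitatory-like nuclei had Gria3 at 964 and 728 CPM (-0.41), Grin2a at 1575 and 1237 CPM (-0.35), Gria1 at 1860.5 and 1508 CPM (-0.30) and Gria2 at 1564 and 1299 CPM (-0.27). Grin3a was higher there, at 133 and 190.5 CPM (0.52), short of 1.5-fold, so that none of 8 members was apart (background 4.53% higher and 1.39% lower). Deep-layer excitatory-like nuclei had Gria3 at -0.32, Grin2a at -0.28, Grin2b at -0.25 and Gria2 at -0.23, whereas Gria1 was at 0.15 with 726 and 807 CPM. That direction of Gria1 did not hold in both sexes, at 0.40 in female and -0.18 in male nuclei. Grin2d was 2-fold higher in that class, with 60 and 147 UMIs, or 10.3 CPM (7.86 to 13.3) and 25.4 CPM (21.5 to 29.9). It was 1 of 9 members, where 6.53% of genes were 1.5-fold higher and 1.63% were 2-fold higher; none was 1.5-fold lower, where 2.21% were.

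Nuclei of the inhibitory-like classes, whose cells come from outside the Emx1 lineage, were read as the MGE and CGE classes joined and apart. None of the 9 members was 1.5-fold apart in the joined class, where 0.319% of 8786 genes were higher and 0.125% lower. Grin2a had 1045 and 1031 CPM (-0.02, -0.05 to 0.01), Grin2b 1456 and 1444 CPM (-0.01) and Gria3 733 and 726 CPM (-0.01). The ratio farthest below 0 was that of Gria1, -0.12, with 3135 and 2881 CPM, and Gria4 was at -0.10 with 2402 and 2246 CPM. The joined values held unlike parts. In CGE inhibitory-like nuclei Gria1 had 1340.2 and 1002 CPM (-0.42) and Grin2a 873 and 699 CPM (-0.32). In MGE inhibitory-like nuclei Gria1 had 3959 and 3853 CPM (-0.04) and Grin2a 1124 and 1203 CPM (0.10). No member was 1.5-fold apart in either class, where 1.38% of genes were higher and 0.644% lower in CGE inhibitory-like nuclei and 0.412% higher and 0.172% lower in MGE inhibitory-like nuclei. Whether excitatory and inhibitory classes differed in their ratios was not tested, since each class gave 1 value per library.

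Immature dentate granule-like nuclei, 1980 and 2218 in number, differed most in Gria3 and Grin2a, both of which stood lower in this class than in dentate granule-like nuclei. Gria3 had 1355 and 756 UMIs, or 149 CPM (141 to 157) and 91.8 CPM (85.3 to 98.5), a log2 ratio of -0.70 (-0.83 to -0.57). It was the 1 of 9 members with the minimum counts that was 1.5-fold lower, where 0.636% of 9594 genes were, and none was 1.5-fold higher, where 1.34% were. Per nucleus, Gria3 was 2.56 and 2.35 times the microglial level. After thinning to 2000 UMIs, 22.0% and 14.1% of nuclei had a Gria3 UMI, beside 14.6% and 12.01% of microglia-like nuclei. Thinning kept only the deeper microglia-like nuclei, 869 of 1541 in Control and 533 of 1499 in the library labelled knockout. In the latter the intervals of these shares overlapped, so no difference from the microglial background is read there at this depth. Without thinning the shares in that library were 22.0% (20.2 to 23.7) and 12.5% (10.8 to 14.3), at unlike depth, and this was not tested. Grin2a had 3035 and 1910 UMIs, or 334 CPM (323 to 347) and 232 CPM (222 to 242), a log2 ratio of -0.53 (-0.61 to -0.45). Under median-of-ratios and TMM scaling it was -0.61 and -0.59, 1.5-fold lower, where 1.16% and 0.980% of all genes were. A ratio at or below that of Grin2a was found in 0.959% of genes with the minimum counts. Nuclei with at least 1 Grin2a UMI made up 58.8% and 42.3%, and 40.0% and 29.97% after thinning to 2000 UMIs, beside 19.6% and 15.9% of thinned microglia-like nuclei. Grin2b was nearly level at 2055 and 2042 CPM (-0.01, -0.04 to 0.02), and so was Gria2 at 1887 and 1856 CPM (-0.02, -0.06 to 0.01). Gria1 had a ratio of -0.15. Grin1 was at -0.13 and Gria4 at 0.16, and both directions turned in female nuclei, to 0.052 and -0.039. Free RNA, taken from the shallowest barcodes, was estimated at 11.2% and 14.7% of UMIs in this class and at 4.15% and 4.85% in dentate granule-like nuclei. The amount was set by counting all member UMIs of microglia-like nuclei as free RNA. The shallowest barcodes reached 612 UMIs in Control and 1069 in the library labelled knockout, so the profiles rest on unlike barcodes. The free RNA held less Grin2a (594 and 290.3 CPM) and Gria3 (457 and 246 CPM) in the library labelled knockout, the same direction as the class. Among the members Grin3a went the other way in it, at 48.9 and 87.6 CPM. Subtracting the free RNA left Grin2a at -0.46 and Gria3 at -0.78, and its part in the result was not tested beyond that.

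Over the 18 classes, Grin2a was below 0 in 17 of the 18 where it met the minimum, with ratios from -1.25 to 0.10. In 9 of these classes, among them the one with the lowest ratio, Grin2a was at most 2.20 times its level per microglia-like nucleus. In the other 9, all neuronal, it was more than 3 times that level in both libraries and below 0 in 8, from -0.53 to 0.10. Of all genes with the minimum counts, 31.9% to 66.3% were below 0, depending on the class. Grin2b was below 0 in 17 of 18, Gria3 in 15 of 18 and Gria2 in 15 of 18. The counting interval lay below 0 in 17 classes for Grin2a, 10 for Grin2b, 12 for Gria3 and 9 for Gria2, and above 0 in 1, 0, 1 and 2. Of all genes with those counts, 6.20% to 30.2% had such an interval below 0, depending on the class. Gria4 was below 0 in 10 of 18 and Grin3a in 7 of 12. The classes share the same pair of libraries and their free RNA, so these counts describe the libraries and are no replicates.

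The ratio of Grin2a to Grin2b UMIs within a class does not depend on how the libraries were scaled. Because the genes differ in length, its level is no ratio of molecules in the cell, and only its change between the libraries is read. Dentate granule-like nuclei had a ratio of 1.59 and 1.37, a log2 change of -0.22 (-0.24 to -0.20). The ratio was 0.163 and 0.114 in immature dentate granule-like nuclei (-0.52, -0.61 to -0.43), 1.27 and 1.10 in CA1-like nuclei (-0.22, -0.23 to -0.20) and 1.19 and 1.10 in CA3-like nuclei (-0.11, -0.14 to -0.09). The ratio was lower in the library labelled knockout in all 4 classes. CA2-like nuclei had a change of -0.37 and subicular excitatory-like nuclei of -0.15, while that of deep-layer excitatory-like nuclei was -0.03 with an interval of -0.10 to 0.04. In the joined inhibitory-like class the ratio was 0.718 and 0.714 (-0.01, -0.04 to 0.03), which joined a change of 0.12 in MGE inhibitory-like and of -0.30 in CGE inhibitory-like nuclei. With clusters weighted equally the change was -0.041 in dentate granule-like and -0.053 in CA1-like nuclei, a setting in which small clusters count as much as large ones. The granule clusters held 4320 and 81 and 67 and 3357 nuclei of the libraries. The CA1 cluster of 1461 and 14 nuclei, which held most Control nuclei of its class, was left out of this setting for its few nuclei of 1 library.

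**Figure D3:**
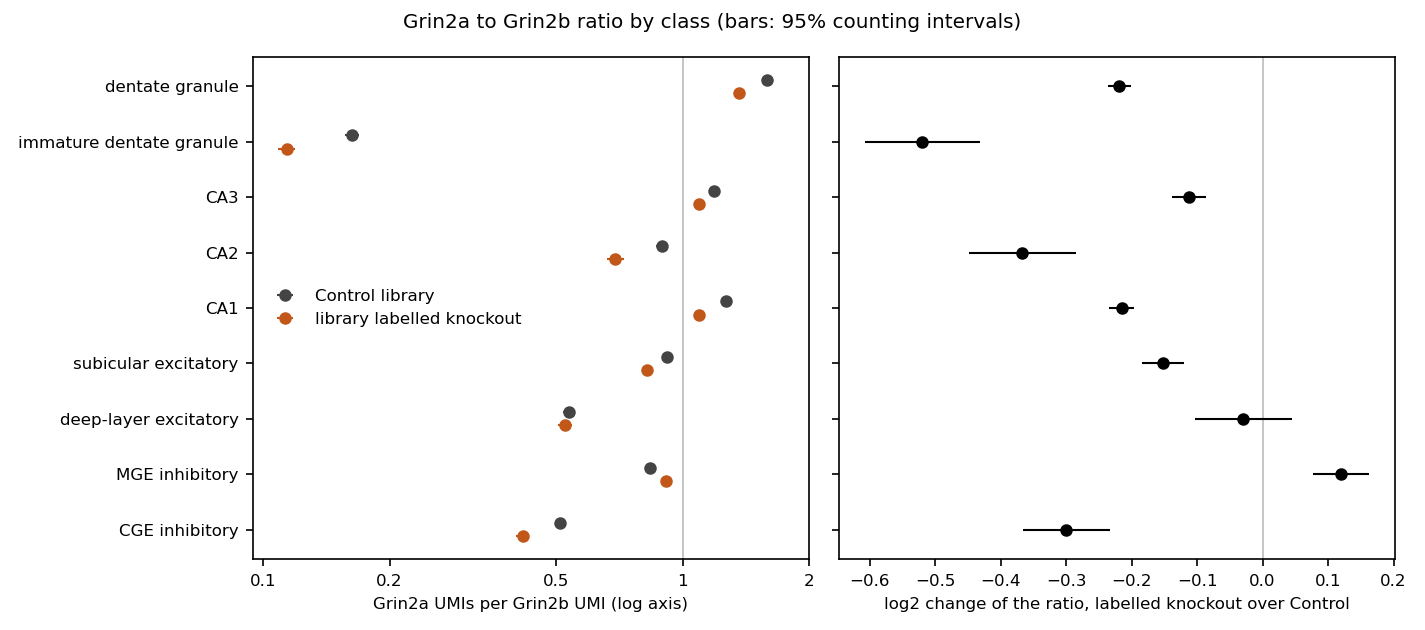
Left, Grin2a UMIs per Grin2b UMI (log axis) in 9 neuronal classes for the Control library (dark points) and the library labelled knockout (orange points); right, log2 change of that ratio between the libraries, both with bars for 95% counting intervals. The immature dentate granule-like class sits lowest on the left (0.163 and 0.114), and MGE inhibitory-like is the class with an interval above 0 on the right.

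The make-up of the AMPA family was read as shares of the UMIs of the 4 Gria genes, not corrected for gene length, so that only the change of a share is meaningful. Gria2 made up 29.4% and 25.4% in dentate granule-like nuclei, where the share of Gria1 was 54.4% and 58.7%. Its share was 33.1% and 31.3% in CA3-like and 28.3% and 27.3% in CA1-like nuclei. Immature dentate granule-like nuclei had a Gria2 share of 44.4% and 46.2% and a Gria3 share of 3.51% and 2.28%. Gria2 thus took a smaller share in the library labelled knockout in the first 3 of these classes and a larger one in the immature granule class. In deep-layer excitatory-like nuclei it was 37.2% and 35.5%, lower as well, but in subicular excitatory-like nuclei it was higher, at 31.9% and 32.7%. CA2-like nuclei had 29.7% and 30.6%, with counting intervals that overlapped. Shares were not read by sex, but in CA1-like nuclei the log2 ratios of Gria2 and Gria1 were -0.44 and -0.16 in female and -0.23 and -0.25 in male nuclei. In MGE inhibitory-like nuclei Gria2 made up 8.89% and 9.08% and Gria4 33.0% and 32.3%.

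In the dentate granule-like and CA1-like classes, different clusters held most nuclei of each library. One granule cluster had 4320 and 81 nuclei and the other 67 and 3357, and the CA1 clusters had 1461 and 14, 115 and 1347 and, for the cluster led by Tacr3, 337 and 439. Oligodendrocyte-like nuclei were split likewise, with clusters of 959 and 217 and 229 and 719. Another clustering left out the genes that were 2-fold apart between the libraries, and each of its granule, CA3 and CA1 clusters held at least 189 nuclei of either library. Its oligodendrocyte-like clusters stayed split, at 873 and 204 and 318 and 736, a subicular excitatory-like cluster had 5 and 67 nuclei and a microglia-like one 30 and 0. Its 3 dentate granule-like clusters had Grin2a at -0.37 (3425 and 2494 nuclei), -0.24 (1185 and 991 nuclei) and -0.41 (202 and 349 nuclei). Gria2 was at -0.29, -0.21 and -0.34 in the same clusters, and the log2 change of the Grin2a to Grin2b ratio was -0.21, -0.09 and -0.22. Both genes were lower in each granule cluster. The CA3-like clusters had 948 and 864 nuclei in the first and 300 and 303 in the second, with Grin2a at -0.37 and -0.34, Gria2 at -0.22 and -0.30 and Grin2b at -0.25 and -0.26. The 3 CA1-like clusters (1710 and 1435 nuclei, 339 and 366 nuclei, 189 and 342 nuclei) had Grin2a at -0.39, -0.55 and -0.55. Grin3a was at 0.95 in the largest of them and at -0.18 and 0.26 in the others. In the first clustering, within the CA1 clusters of 115 and 1347 and of 337 and 439 nuclei, Grin3a was below 0, at -0.83 and -0.17, against the direction of the whole class, and Grin2a was at -0.21 and -0.53. The log2 change of the Grin2a to Grin2b ratio in these clusters was -0.02 (-0.08 to 0.03) and -0.18 (-0.22 to -0.13). Gria4, higher in the whole CA1-like class, was below 0 in each of the 3 CA1-like clusters made without those genes, at -0.11, -0.09 and -0.39.

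Nuclei were also split by sex from Xist and Y-linked UMIs, which by the labels puts 1 mouse per library in the female part and 2 in the male part. This is a check inside each pool and makes no replicates. Grin2a in dentate granule-like nuclei was at -0.41 in female and -0.36 in male nuclei. These ratios rest on 53408 and 30187 UMIs in female nuclei and on 83104 and 48912 in male nuclei. The whole class had 175825 and 96661, since nuclei called neither sex are in neither part. A class value need not lie between its parts: Gria4 in CA3-like nuclei was at -0.23 in female and -0.25 in male nuclei, against -0.15 in the class. The direction held in the other main excitatory classes. Grin2a was at -0.41 in female and -0.35 in male nuclei of the CA3-like class, -0.52 in female and -0.42 in male nuclei of the CA1-like class and -0.37 in female and -0.66 in male nuclei of the immature dentate granule-like class. Gria2, Gria3, Grin1 and Grin2b were also below 0 in both parts of the CA1-like, CA3-like and dentate granule-like classes. For Grin2b the ratio was -0.27 in female and -0.10 in male nuclei of the dentate granule-like class and -0.39 in female and -0.17 in male nuclei of the CA1-like class. Gria3 in the immature dentate granule-like class was at -0.51 in female and -0.94 in male nuclei, on 428 and 278 UMIs and 525 and 237 UMIs. Directions did turn between the sexes elsewhere, beyond the counting intervals, for Gria1 in dentate granule-like (0.06 in female and -0.02 in male nuclei) and deep-layer excitatory-like nuclei and for members of the inhibitory-like and committed oligodendrocyte precursor-like classes. Differences between the sexes were not tested.

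**Figure D4:**
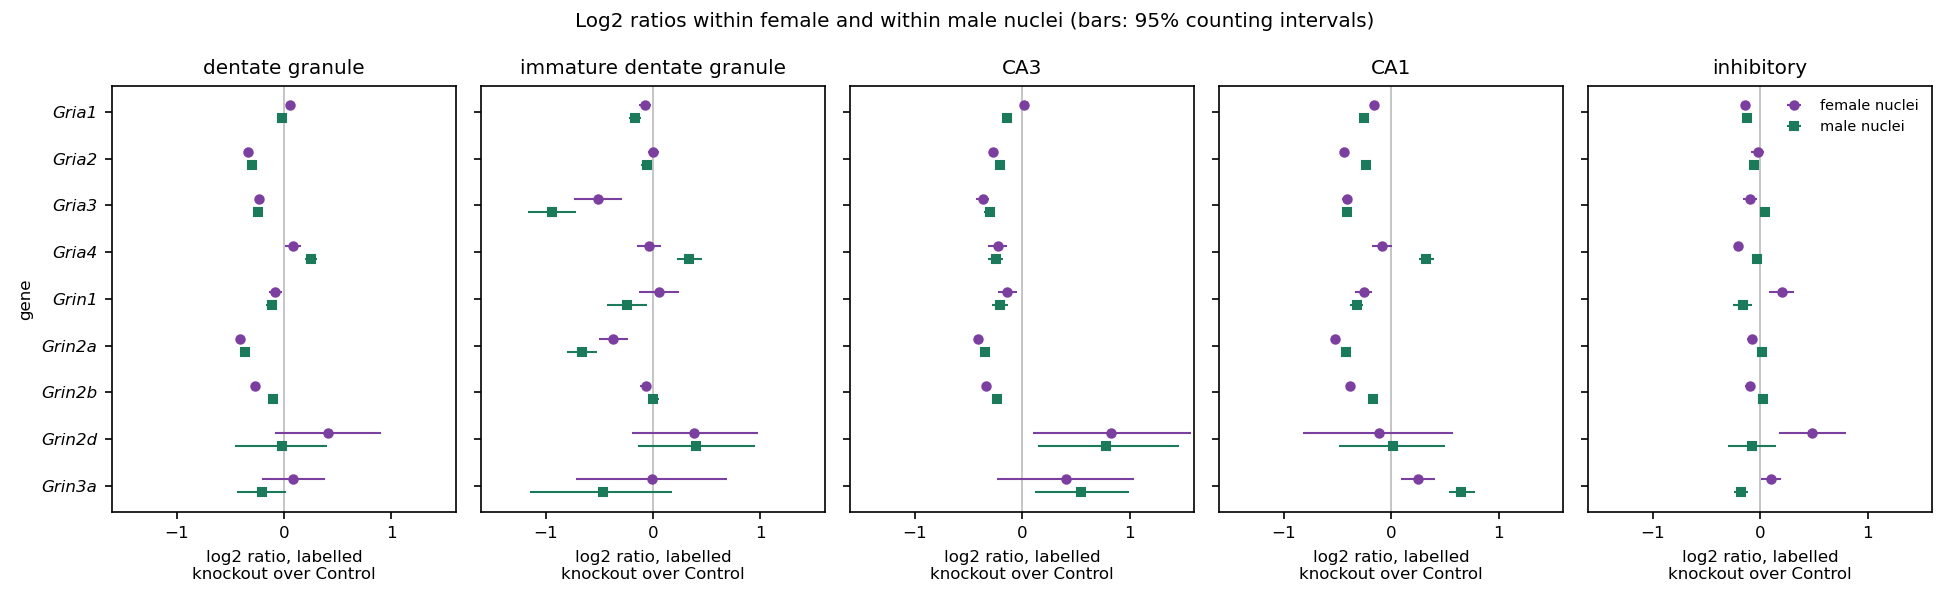
Log2 ratio, the library labelled knockout over Control, for the 9 genes (vertical axis) in 5 classes (panels), in female nuclei (purple circles) and male nuclei (green squares), with bars for 95% counting intervals. Grin2a, Gria2 and Gria3 lie left of 0 for both sexes in the CA1-like, CA3-like and dentate granule-like panels, while Grin2a in the inhibitory-like panel lies at -0.08 and 0.02.

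Glia and other non-neuronal classes set a limit to how low a level can be read, because free RNA can add UMIs to any nucleus. Microglia-like nuclei, which should lack most of these receptors, had 126 and 95.5 CPM of Grin2a (-0.40). The class joins a cluster of 1512 and 1499 nuclei and one of 29 and 0 nuclei. The mean log2 rise of the microglial markers was 6.26 in the first and 2.20 in the second. The part of the second cluster in the microglial level and in the free RNA amount of Control was not tested. Per nucleus, Grin2a UMIs in astrocyte-like nuclei were 0.894 and 1.06 times those in microglia-like nuclei, and in oligodendrocyte-like nuclei 1.30 and 0.973 times. The Grin2a values of astrocyte-like nuclei were thus near the microglial level in both libraries. Those of oligodendrocyte-like nuclei were above it in Control and near it in the library labelled knockout, and their difference was 2-fold (443 and 158 UMIs, -1.21, where 4.36% of genes were 1.5-fold higher, 5.01% lower and 1.01% 2-fold lower). Gria3 in astrocyte-like nuclei, 1.5-fold lower with 773 and 323 UMIs (background 0.783%, and 1.47% higher), was 1.43 and 1.23 times microglia per nucleus. In dentate granule-like nuclei, by contrast, Grin2a UMIs per nucleus were 139.7 and 162 times those of microglia-like nuclei, and in immature dentate granule-like nuclei 5.34 and 4.96 times.

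Other glial members stood above this background. In oligodendrocyte precursor-like nuclei Grin3a was 121 and 178 times microglia per nucleus and its log2 ratio was -0.16, Gria4 was at -0.03 and Gria3 at 0.02. No member was 1.5-fold apart there, where 1.57% of genes were higher and 0.684% lower. Astrocyte-like nuclei had Gria2 at 0.08 and Grin3a at -0.09. Radial glia-like nuclei had Grin2b at 4.50 and 4.22 times microglia per nucleus and at 698 and 515 CPM, a log2 ratio of -0.44 (-0.60 to -0.28), with -0.60 in female and -0.45 in male nuclei.

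The smaller and non-neuronal classes held the remaining members past 1.5-fold, most of them on few UMIs. Cajal-Retzius-like nuclei had Gria3 with 55 and 34 and Grin2a with 59 and 29 UMIs, both lower (background 2.71%, and 4.45% higher), though Gria3 was at 0.28 in female and -1.24 in male nuclei. Cycling progenitor-like nuclei had Gria3 with 137 and 71 and Grin2a with 217 and 77 UMIs, both lower (background 3.56%, and 2.66% higher). Grin2a there was at -0.20 in female nuclei, with an interval of -0.92 to 0.51, and at -2.07 in male nuclei. Committed oligodendrocyte precursor-like nuclei had Grin2a with 295 and 157 UMIs, lower in the whole class (background 1.82%, and 3.85% higher), but its direction turned between the sexes, at 0.74 in female and -0.93 in male nuclei. In these 3 classes Grin2a per nucleus was between 0.753 and 2.20 times the microglial level over both libraries. Radial glia-like nuclei had Gria3 with 180 and 66 UMIs, lower (background 3.92%) but at -1.13 in female and 0.09 in male nuclei, and Grin3a with 52 and 53 UMIs, higher in CPM (background 2.65%) and 3.46 and 9.26 times microglia per nucleus. Endothelial-like nuclei, 101 and 138 in number, had Gria4 with 12 and 61 UMIs, higher (background 12.5%), and Gria1 with 79 and 74 and Grin2a with 53 and 32 UMIs, lower (background 6.5%). Median-of-ratios and TMM scaling left Gria1 short of 1.5-fold there. In microglia-like nuclei no member was 1.5-fold apart, where 1.91% of genes were higher and 3.14% lower, but under both other scalings Gria3 and Grin3a were 1.5-fold lower, where 3.65% and 3.66% of all genes were.

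The genes that work with these receptors were read from a list of 44: AMPA auxiliary subunits, assembly and trafficking factors, postsynaptic scaffolds, kinases and editing enzymes, pentraxins and the other NMDA subunits. Dentate granule-like nuclei had 39 of them with the minimum counts, of which 1 was 1.5-fold higher and 3 lower, where 4.92% and 2.98% of all genes were. The list had a median log2 ratio of 0.01 beside 0.02 for all genes. Gsg1l, an AMPA auxiliary subunit, had 35.8 and 14.0 CPM (-1.35). Neto1, an auxiliary subunit of kainate receptors that also associates with NMDA receptors, had 254 and 132 CPM (-0.95). Cacng2, which encodes stargazin and carries AMPA receptors to the membrane, had 40.4 and 23.3 CPM (-0.79). The scaffold gene Shank1 was the higher one, with 66.0 and 116 CPM (0.81).

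CA3-like nuclei had 37 list genes with the minimum counts, 1 higher and 2 lower, where 3.95% and 1.38% of all genes were, with a median of -0.01 beside 0.07 for all genes. Cacng2 was again lower, with 95.2 and 53.0 CPM (-0.84), and so was the scaffold gene Homer1, with 198 and 121 CPM (-0.71). Cnih3, a cornichon that slows AMPA receptor gating, was higher with 6.58 and 12.5 CPM (0.93). CA1-like nuclei had 38 such genes, 2 higher and 3 lower, where 7.76% and 2.29% of all genes were, with a median of -0.04 beside 0.11. Shisa9, an AMPA auxiliary subunit, had 49.0 and 116 CPM (1.24), and Cnih3 had 49.8 and 77.9 CPM (0.65). Nptx2, an activity-regulated pentraxin that gathers AMPA receptors, had 14.0 and 7.50 CPM (-0.90). Cacng2 was at -0.74 and Homer1 at -0.63, so these genes were 1.5-fold lower in both pyramidal classes.

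Immature dentate granule-like nuclei had 40 list genes with the minimum counts, none 1.5-fold higher and 3 lower, where 1.34% and 0.636% of all genes were, with a median of -0.07 beside 0.05 for all genes. The 3, named after their values were seen, were Camk2a, the kinase of the postsynaptic density, with 125 and 69.3 CPM (-0.85), Shisa9 with 142 and 80.2 CPM (-0.82) and Neto1 with 21.7 and 13.1 CPM (-0.72). Inhibitory-like nuclei had 39 list genes with the minimum counts, none past 1.5-fold, where 0.319% of all genes were higher and 0.125% lower, with a median of -0.02 beside 0.04. There Cacng2 had 137 and 128 CPM (-0.09) and Homer1 91.6 and 80.0 CPM (-0.19). Adarb1, the enzyme that edits the GluA2 transcript, also named after its values were seen, had 57.7 and 78.3 CPM in CA1-like (0.44), 159.8 and 163 CPM in CA3-like (0.02) and 164 and 165 CPM in dentate granule-like nuclei (0.01). Of the other NMDA subunits, Grin2c and Grin3b were under the minimum level in the 5 main classes, and Grin2c was a gene of astrocyte-like nuclei, with 232 and 227 CPM.

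**Figure D5:**
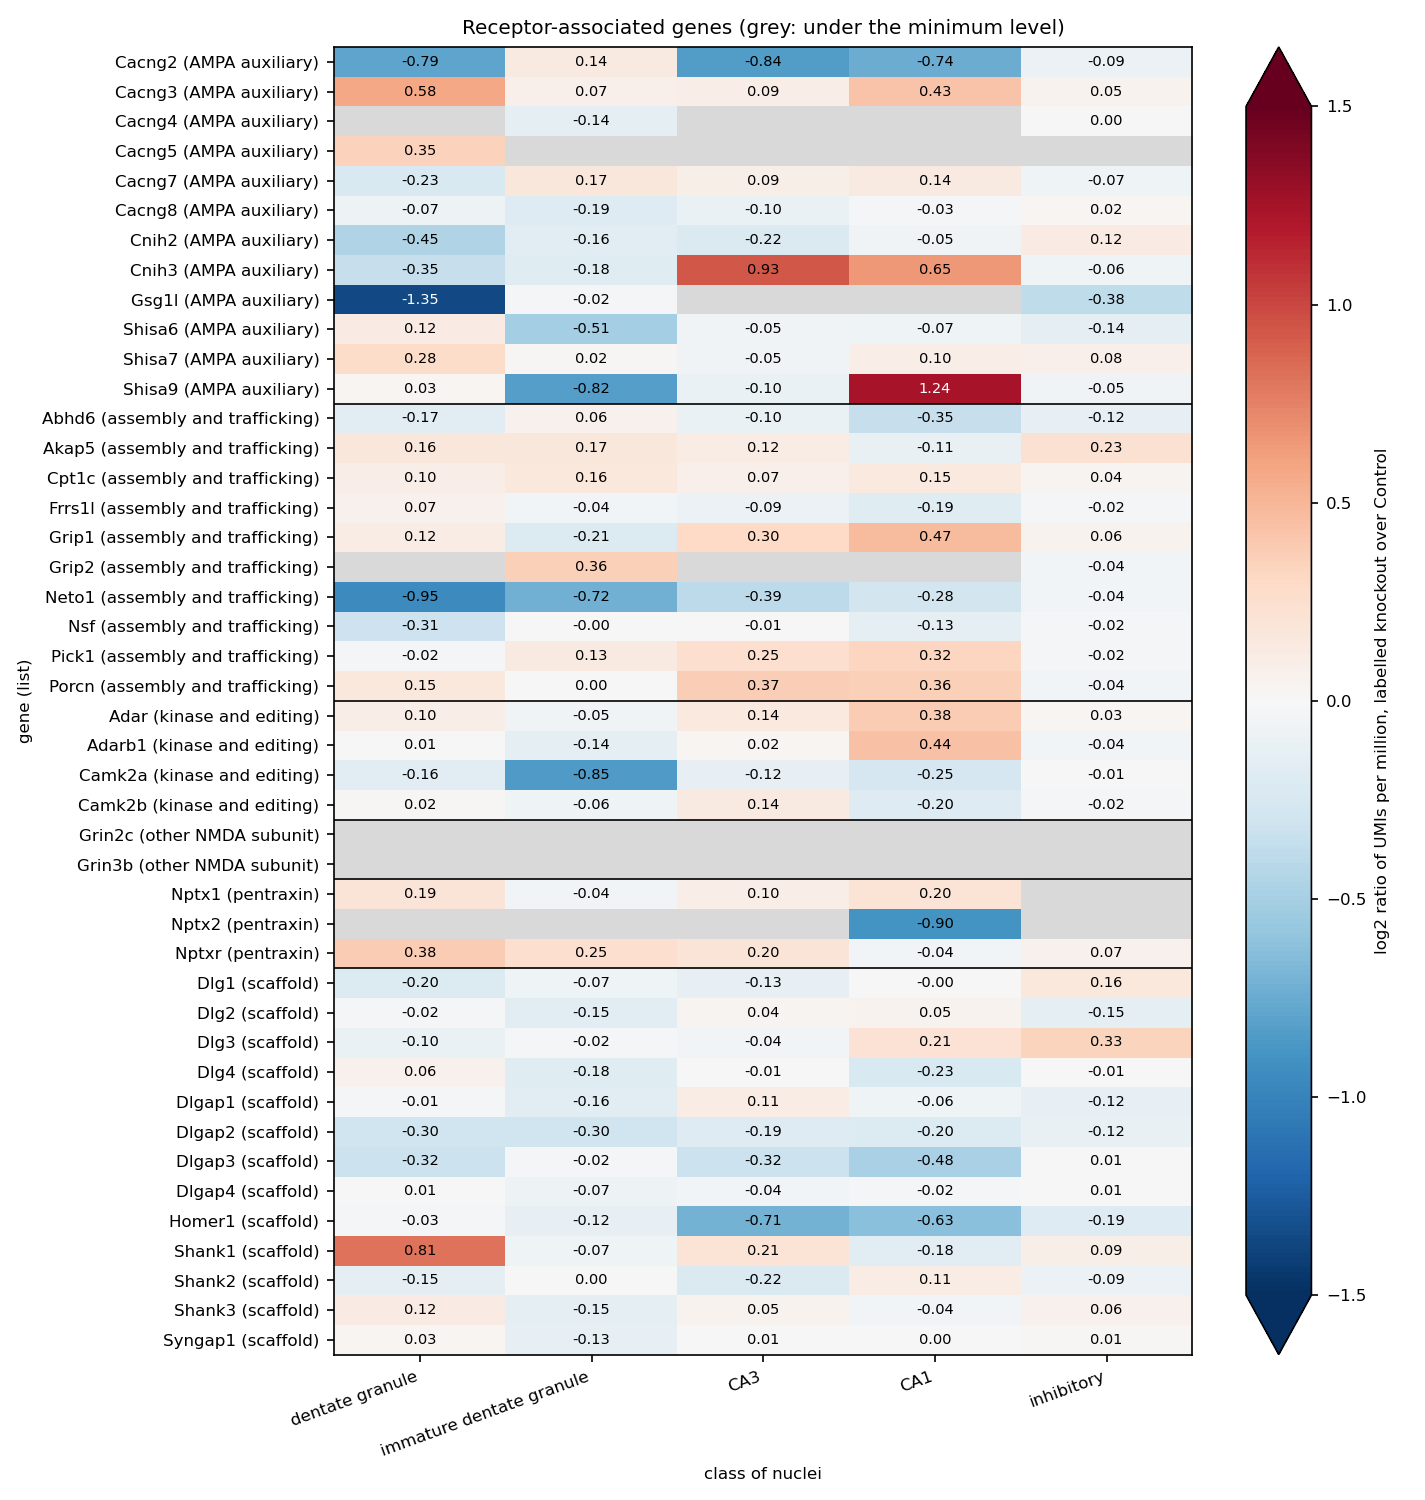
Log2 ratio of CPM, the library labelled knockout over Control, for 44 receptor-associated genes (rows, with their list in brackets) in 5 classes of nuclei (columns), with the value printed in each cell and grey for genes under the minimum level. Cacng2 is blue in the CA1-like (-0.74), CA3-like (-0.84) and dentate granule-like (-0.79) columns, and the inhibitory-like column has no value past 1.5-fold.

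Markers of granule cell age are given beside the granule values. Of 8 immature markers, 5 met the minimum in dentate granule-like nuclei and all of these were higher in the library labelled knockout, among them Dcx with 25.8 and 54.7 CPM (1.08) and Sox11 (0.31), both genes of young neurons. Of 8 mature markers 7 met the minimum, and 2 were higher and 5 lower. Among them Ntng1 was at -2.61, Rasgrp1 at -2.90, Trpc6 at -1.70 and Calb1, the calcium buffer of mature granule cells, at -0.21, while Tdo2 was at 0.89 and C1ql2 at 0.53. In immature dentate granule-like nuclei the immature markers had a median of 0.04, with 6 higher and 2 lower. The mature markers, of which 3 met the minimum there, had a median of -0.15, with 1 higher and 2 lower. The summed level of the 6 markers of the immature granule class was 84.6 and 145 CPM in dentate granule-like, 72.8 and 95.3 CPM in CA3-like and 41.3 and 99.4 CPM in CA1-like nuclei. Summed markers of CGE inhibitory-like cells were 1649 and 2065 CPM in dentate granule-like and 90.1 and 113 CPM in CA1-like nuclei. Astrocyte markers summed to 250.4 and 303 CPM and microglial markers to 95.3 and 78.1 CPM in dentate granule-like nuclei, and no marker of these sets was at 0 in the 5 main classes. The part of these genes in the receptor values was not tested.

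Likeness to other genes was measured by Pearson's r of log2(CPM + 1) over 36 points, 18 classes in each of 2 libraries, which share depth and free RNA. The nearest gene to Grin2a was Camk2a (r = 0.980), followed by the scaffold gene Dlgap2 (0.963). Grin1 was nearest to the potassium channel gene Kcnj6 (0.971) and the synaptic vesicle gene Syt1 (0.969). Gria2 was nearest to Astn1 (0.900), Gria3 to the glutamate receptor gene Grm5 (0.900) and Gria4 to Kctd8 (0.843). Grin2d was nearest to Grip2 (0.848) and Grin3a to the phosphatase gene Ptprt (0.915). The gene nearest to Grin2b was Gm14330 (0.972), which overlaps it on the opposite strand. Reads of overlapping genes on opposite strands cannot be told apart unless strand was used in counting, and Gm14330 had 19.4 and 19.8 CPM in dentate granule-like nuclei against 2046 and 1827 CPM of Grin2b. Among the members, Grin1 and Gria1 were most alike (0.943).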

How the data were processed

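Nuclear RNA of 1 Control library and 1 library labelled knockout was counted per gene and barcode. The deposited files hold counts: whole UMIs per gene, which the authors obtained from Cell Ranger 8.0.1 on mm39, per the submitters' processing notes. Other settings are not given in the sources used here. Each group was 1 library pooled from 3 mice, so no test, p-value or replicate error was possible.

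Barcodes with at least 500 genes and at most 5% mitochondrial UMIs were kept, and doublets were called with Scrublet at an expected rate of 0.1 and removed (3194 of 25060 in Control and 2513 of 23043 in the library labelled knockout). Clusters came from 3000 variable genes, 30 principal components, 15 neighbours and Leiden resolution 1, without the receptor genes, Xist, Tsix, Y-linked and mitochondrial genes. To be named, a cluster needed at least 3 markers raised by 0.5 log2 in at least 10% of its nuclei. The mean rise over all markers of the class, raised or not, had to be at least 0.5 log2. Even so, a cluster stayed unnamed when markers of a different class outnumbered its own among its 10 top genes. Shallow clusters stayed unnamed when no marker of their own was among these genes, or when neuronal secretory genes led them. The minimum mean rise and the rule on secretory genes were set after clusters had been seen. Clusters without a name held 2268 and 2107 nuclei and were left out. The rule on markers of a different class took out 884 and 701 of these nuclei. Among them was a cluster of 788 and 578 nuclei with 6 CA1 markers raised, which the CA1-like class therefore lacks. The minimum mean rise took out 1118 and 1266 nuclei. One of its clusters, of 550 and 480 nuclei, had 4 immature granule markers raised, and the granule-like classes therefore lack it. Clusters of 379 and 435 and of 101 and 267 nuclei, nearest to the CA1 markers, were left out by the same rule.

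UMIs were summed per library and class. Levels have exact Poisson intervals, and ratios, with 0.5 UMI added to each sum, exact conditional binomial intervals. The change of the Grin2a to Grin2b ratio has a Woolf log-normal interval in place of the exact one planned, which could not be computed at these counts. Intervals are at 95%. Nuclei with at least 2 Xist UMIs and 0 Y-linked UMIs were called female, and those with at least 1 Y-linked UMI and 0 Xist UMIs male. The 9 members were named in every class, list genes when past 1.5-fold in dentate granule-like, CA3-like or CA1-like nuclei, and up to 2 most alike genes per member, of which some are not reported here. The members and lists were chosen with earlier results of these data known. The code was tested on simulated data. Alternatives were median-of-ratios and TMM scaling, a minimum of 20 UMIs, kept doublets, a stricter filter (1000 genes, 1% mitochondrial UMIs), female or male nuclei alone, thinning to 2000 UMIs, subtraction of free RNA, Leiden resolution 2, receptor genes kept in or 2-fold genes left out of the clustering, and equal weights for clusters. The minimum of 20 UMIs was applied with no minimum CPM. Equal weights used only clusters with enough nuclei of both libraries and were not run for the immature dentate granule-like class. Tools were Python 3.11.15, numpy 2.4.6, scipy 1.17.1, pandas 2.3.3, scanpy 1.11.5, scikit-learn 1.9.0, leidenalg 0.10.2, igraph 0.11.9 and matplotlib 3.10.9.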

Additional observations from a re-analysis of the deposited data

Results flagged for a closer look

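Some directions differed between the female and male nuclei of the pools beyond the counting intervals, and none of these differences was tested. Gria1 in dentate granule-like nuclei was at 0.06 in female and -0.02 in male nuclei on the log2 scale. In inhibitory-like nuclei Gria3 was at -0.09 in female and 0.05 in male nuclei, Grin1 at 0.20 and -0.16 and Grin3a at 0.10 and -0.18, and in their MGE inhibitory-like part Grin1 was at 0.21 and -0.15 and Grin3a at 0.27 and -0.17. Gria1 in deep-layer excitatory-like nuclei was at 0.40 in female and -0.18 in male nuclei. In committed oligodendrocyte precursor-like nuclei Grin2a was at 0.74 in female and -0.93 in male nuclei, and Gria3 at -0.54 and 0.27. Each female part is 1 mouse per library, so a difference between sexes cannot be told apart from one between mice.

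Gria4 had opposite directions in different classes, also untested. It was at 0.18 in dentate granule-like and 0.19 in CA1-like nuclei and at -0.15 in CA3-like nuclei, and the first pair turned to -0.12 and -0.22 when clusters were weighted equally. In the CA1-like class that setting left out the cluster with most Control nuclei.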

How the results depend on the processing

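The 5 main classes were recomputed under 13 other settings and 1 chosen after seeing the data, the CA1-like class without the cluster led by Tacr3. The 20-UMI minimum, which also dropped the minimum CPM, gave no new values of single genes. Equal weights were not run for immature dentate granule-like nuclei. Of the 540 values, 349 stayed within the main counting interval, 11 reversed and 180 moved otherwise. A value counted as reversed only where the main interval excluded 0. Other changes of sign are thus not among the 11, such as Grin1 in inhibitory-like nuclei, from -0.026 to 0.20 in female nuclei, and Gria1 in dentate granule-like nuclei, from 0.01 to as low as -0.078. The reversals were Gria4 in dentate granule-like nuclei (-0.12, clusters weighted equally), in immature dentate granule-like nuclei (-0.039, female) and in CA1-like nuclei (-0.082 female, -0.076 at resolution 2, -0.22 with clusters weighted equally and -0.038 without the cluster led by Tacr3), Grin1 in immature dentate granule-like nuclei (0.052, female), Gria1 in CA3-like nuclei (0.014, female), Grin3a in CA3-like nuclei (-0.13, thinned), in CA1-like nuclei (-0.50, clusters weighted equally) and in inhibitory-like nuclei (0.10, female). The log2 change of the Grin2a to Grin2b ratio was -0.14 in female nuclei, -0.26 in male nuclei and -0.041 with clusters weighted equally in the dentate granule-like class, and -0.13, -0.25 and -0.053 in the CA1-like class, where it was -0.23 with doublets kept and -0.24 thinned. Members past 1.5-fold numbered 2 in immature dentate granule-like nuclei with median-of-ratios scaling, TMM scaling or male nuclei and 0 in female nuclei, 2 in CA3-like nuclei at the 20-UMI minimum and 1 with clusters weighted equally, and 0 in CA1-like nuclei with TMM scaling, doublets kept, female nuclei, resolution 2, 2-fold genes left out or clusters weighted equally. With median-of-ratios scaling the CA1-like count stayed 1, but the member was Grin2a (-0.60) in place of Grin3a (0.48). The share of all genes past 1.5-fold moved with the setting too. With median-of-ratios and TMM scaling, 5.51% and 5.90% of genes were higher and 3.57% and 3.18% lower in CA1-like nuclei. In immature dentate granule-like nuclei 0.782% and 0.896% were higher and 1.16% and 0.980% lower. For the other settings that share is not given here, so their member and list counts are not read against all genes. List genes past 1.5-fold numbered 1 (female) and 5 (free RNA subtracted) in immature dentate granule-like nuclei against 3, 6 in CA3-like nuclei at the 20-UMI minimum against 3, 2 (doublets kept), 2 (resolution 2) and 3 (2-fold genes left out) in CA1-like nuclei against 5, and 2 (20-UMI minimum), 1 (female) and 1 (thinned) in inhibitory-like nuclei against 0. The cause was not tested. In the CA1-like class equal weights left out the cluster of 1461 and 14 nuclei for its few nuclei of 1 library. They rest there on the clusters of 115 and 1347 and of 337 and 439 nuclei. No paired analysis was possible because each group is 1 library, and no library could be left out for the same reason. Depth limits Grin2d and Grin3a, with under 10 CPM in several principal classes.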
